A study of Mus musculus with 4 samples.

Results

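Interferon-stimulated genes were followed through every cell type of the mouse aortic arch. The set was given as a list of 39 gene names. Of these, 38 had a row in the deposited tables, among 31053 genes, and all 38 had UMIs in the kept cells. A UMI (unique molecular identifier) count is the number of distinct transcript molecules tagged at the 3′ end, and levels are given in CPM, the UMIs of a gene for every 1000000 UMIs of the cells, which at the 3′ end need no scaling for gene length. Mx2 had no row and was not analysed here. The 38 genes fell into 25 antiviral effectors, 4 regulators of the response and 9 interferon-inducible GTPases.

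Type I and type III interferons are secreted by cells that sense viral or misplaced nucleic acid. They bind receptors on neighbouring cells and activate Stat2, which joins Irf9 in a complex that binds the interferon-stimulated response element (ISRE) in promoters. Interferon gamma, made mainly by NK and T cells, acts through a separate receptor, and its targets carry the gamma-activated site (GAS). The induced genes include proteins that block viral replication, such as the Ifit family, which bind viral RNA, and Rsad2, which makes a nucleotide that ends viral RNA chains. They also include the ubiquitin-like modifier Isg15, the GTPases that attack the vacuoles of intracellular pathogens, and Usp18, which removes Isg15 from proteins and dampens receptor signalling. In the arterial wall such genes are known from macrophages and endothelium, and type I interferon signalling is studied as a modifier of atherosclerosis.

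The 4 libraries each came from the pooled aortic arches, with branches and perivascular tissue, of male mice that were 3 months old at the start. Both genotypes carried the floxed Nrf2 alleles (Nrf2flox/flox, called flox here), with or without the Cdh5-Cre that defines Nrf2Cdh5tKO, a Cre active in endothelium and in part of the hematopoietic cells. The normocholesterolemic libraries, 4 mice each, came from mice given saline and standard diet, and the atherosclerotic libraries, 3 mice each, from mice made atherosclerotic and fed a high-fat diet for 21 weeks. Values per library are given in a fixed order throughout: normocholesterolemic flox, normocholesterolemic labelled Nrf2Cdh5tKO, atherosclerotic flox, atherosclerotic labelled Nrf2Cdh5tKO.

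Each group was 1 library, so no difference between groups was tested. Intervals are exact 95% intervals and cover counting error only, not the spread between mice. A gene was called higher or lower between a pair of libraries when it differed by 2-fold or more among genes with 20 or more UMIs over both. Nfe2l2, the gene of Nrf2, stood in endothelial cells at 185 (143 to 235), 368 (301 to 447), 170 (114 to 244) and 360 (275 to 464) CPM, so it was not lower under the Nrf2Cdh5tKO label. Molecules with and without the excised exon cannot be told apart in counts per gene, and the label is therefore written as "labelled Nrf2Cdh5tKO". By qPCR the paper reports less of the excised exon, and less Nqo1 and Gclm, in bone marrow-derived macrophages and Kupffer cells of Nrf2Cdh5tKO mice. Those are not the aortic cells described here. After filtering, 14148 cells remained (7890, 2972, 1020 and 2266), with 11774812 to 95364714 UMIs a library. Marker genes placed 12439 cells in 13 cell types, and macrophages were split into 3 kinds (Lyve1+, aortic intima resident or AIR, and other). The cells carried the markers of their type, with a median of 6 of 6 detected in fibroblasts, 5 of 6 in endothelial cells and 8 of 8 in macrophages. Other gates were weaker: dendritic cells had a median of 3 of 6, with 36 of 63 cells at the fewest markers allowed, 68 of 119 AIR macrophages stood at that minimum, and classical monocytes had 4 of 5, with 23 of 84 at the minimum. Between 2 and 10 barcodes were shared by any pair of libraries.

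Promoter sequences show what the genes share outside their expression. RefSeq promoters (GRCm38.p6, from 250 bases before to 50 bases after the start) were matched for 30 of the 38 genes. The ISRE letters GAAANNGAAA, read on both strands, lay in 20 of the 30 (66.7%) and in 3.44% of all 32851 promoters. The GAS letters TTCNNNGAA lay in 7 of the 30 (23.3%) and in 8.3% of all promoters. Among GTPases the ISRE letters were found in 7 of 8, among effectors in 12 of 19 and among regulators in 1 of 3 (Stat2). A match is a description of letters and not of binding, and the motifs can overlap each other. The promoters below are shown because these 5 genes are among those described by library in macrophages: Isg15, Ifit1, Ifit3 and Rsad2 were higher in the same libraries, whereas Bst2 ran the other way. They are written in the direction of the gene, with ISRE letters on either strand in capitals.
Isg15: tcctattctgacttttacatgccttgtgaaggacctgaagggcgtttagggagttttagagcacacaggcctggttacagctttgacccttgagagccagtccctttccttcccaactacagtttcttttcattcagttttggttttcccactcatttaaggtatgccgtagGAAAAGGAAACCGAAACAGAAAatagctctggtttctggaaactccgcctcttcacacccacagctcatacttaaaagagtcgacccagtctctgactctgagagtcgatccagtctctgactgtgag
Ifit1: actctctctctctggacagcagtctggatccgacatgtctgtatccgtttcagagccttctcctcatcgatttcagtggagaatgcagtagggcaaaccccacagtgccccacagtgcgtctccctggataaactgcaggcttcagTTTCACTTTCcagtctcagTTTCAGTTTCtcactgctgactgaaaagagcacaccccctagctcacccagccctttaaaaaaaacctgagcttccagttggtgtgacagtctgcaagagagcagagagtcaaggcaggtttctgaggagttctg
Ifit3: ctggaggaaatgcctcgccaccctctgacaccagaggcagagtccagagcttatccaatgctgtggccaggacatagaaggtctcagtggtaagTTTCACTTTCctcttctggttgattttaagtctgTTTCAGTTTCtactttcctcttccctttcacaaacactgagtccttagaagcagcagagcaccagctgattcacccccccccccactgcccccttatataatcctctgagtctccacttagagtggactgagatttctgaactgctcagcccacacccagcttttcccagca
Rsad2: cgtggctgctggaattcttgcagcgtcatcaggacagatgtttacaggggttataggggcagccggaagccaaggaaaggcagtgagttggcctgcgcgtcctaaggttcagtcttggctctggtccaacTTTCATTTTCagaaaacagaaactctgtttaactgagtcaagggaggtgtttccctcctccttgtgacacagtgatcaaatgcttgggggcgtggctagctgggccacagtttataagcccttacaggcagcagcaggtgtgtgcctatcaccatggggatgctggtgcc
Bst2: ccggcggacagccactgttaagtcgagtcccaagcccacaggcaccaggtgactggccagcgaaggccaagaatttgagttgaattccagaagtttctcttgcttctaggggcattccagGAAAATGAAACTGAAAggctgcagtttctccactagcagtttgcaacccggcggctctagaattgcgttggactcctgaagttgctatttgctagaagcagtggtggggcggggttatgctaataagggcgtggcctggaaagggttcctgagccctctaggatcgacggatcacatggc

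The Isg15 promoter (chr4:156200769-156201068, minus strand) held a run of 3 overlapping ISRE matches that began 78, 72 and 66 bases before the start. Ifit1 (chr19:34640639-34640938, plus strand) held matches at 104 and 85 bases, and Ifit3 (chr19:34583279-34583578, plus strand) at 156 and 122 bases, all on the opposite strand. Rsad2 (chr12:26456403-26456702, minus strand) held 1 match at 120 bases on the opposite strand. Bst2 (chr8:71537423-71537722, minus strand) held 2 overlapping matches at 130 and 124 bases. The same letters were thus present in genes that differed in opposite directions between macrophage libraries. All the genes shown held a match. Genes whose promoters held none included Ifit2, Oasl1, Oasl2, Cmpk2, Ifi44, Ifi47, Herc6, Irf7 and Irf9. Of these, Ifit2, Oasl1, Cmpk2, Ifi47 and Herc6 were among the genes called higher in macrophages of the normocholesterolemic library labelled Nrf2Cdh5tKO. Oasl2, Ifi44, Irf7 and Irf9 were not. The 4 Ifit genes lie side by side on chromosome 19, from 34550694 to 34650009 in the GENCODE annotation of mm10. Igtp and Irgm2 overlap on the same strand of chromosome 11, and Ifit3 with Ifit3b, Oas1a and Tgtp1 have near-identical copies, so the split of UMIs within these pairs is uncertain.

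UMIs of the set were found in every cell type, with summed levels that ran from 313 to 3950 CPM. Classical monocytes had the highest summed level, 3950 over the 4 libraries, followed by endothelial cells at 3375, neutrophils at 3346 and macrophages at 3059. Fibroblasts stood at 1723 and thymocytes at 493. Smooth muscle cells were lowest, at 313. The intervals of endothelial cells and neutrophils overlapped, so these neighbours did not differ beyond counting error. These are pooled values, and their order differed by library and from that of the median cell. Per 10000 UMIs the median cell held 37.2 of the set in classical monocytes, 27.1 in endothelial cells, 21.4 in macrophages and 15.4 in neutrophils. Classical monocytes stood at 4555, 3212, 3989 and 2611 CPM and were highest in both flox libraries. Endothelial cells stood at 3268, 5023, 2480 and 1760.2, highest of all cell types in the normocholesterolemic library labelled Nrf2Cdh5tKO, and macrophages were highest in the atherosclerotic one. Neutrophils stood at 3684, 2728, 1708 and 2245. After thinning each cell to 3000 UMIs any of the genes was seen in 96.9% of macrophages, 92.2% of fibroblasts and 54.6% of smooth muscle cells (98.8%, 97.2% and 93.0% without thinning). No cell type here is known to lack the whole set, so none gives a background level, and the part of free RNA in the low levels was not tested. Single genes had no UMI in some types, among them Slfn5, Ifi211, Oasl2 and Rsad2 in NK cells.

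**Figure D1:**
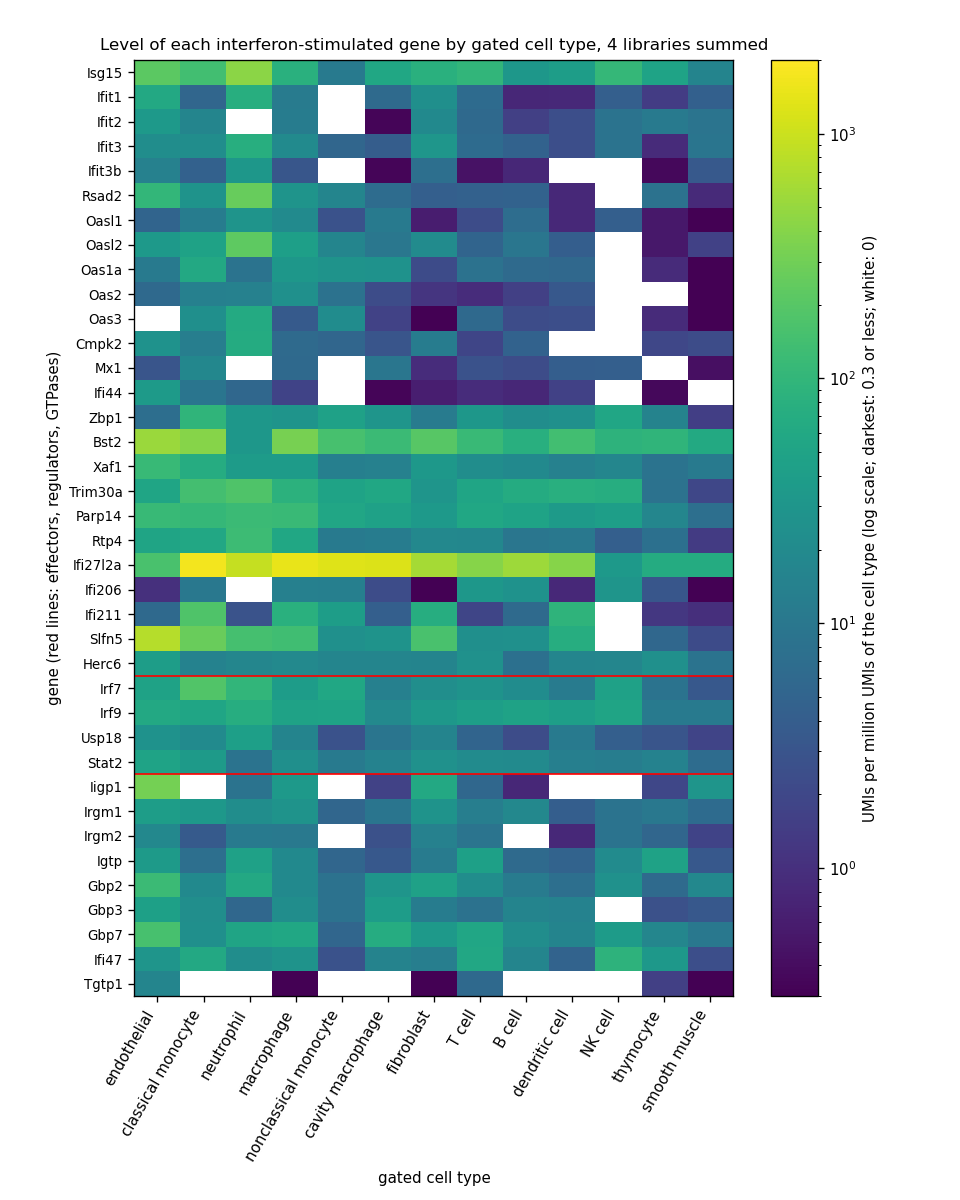
CPM (log10 colour scale) of the 38 interferon-stimulated genes (rows, grouped by role) in each gated cell type (columns), summed over the 4 libraries. Ifi27l2a is bright in most myeloid columns, Slfn5 and Iigp1 are brightest in endothelial cells, and Isg15, Rsad2 and Oasl2 in neutrophils.

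Ifi27l2a, a small interferon-induced gene, held 37.3% of all the UMIs of the set, and Bst2 (tetherin, which holds budding virus at the cell surface) held 11.9%. The order of cell types therefore rested partly on Ifi27l2a. Without it, endothelial cells led at 3218 CPM, neutrophils stood at 2433, classical monocytes at 2224 and macrophages at 1546. By library, endothelial cells then stood at 3006, 4880, 2433 and 1694 and classical monocytes at 2280, 2174, 2373 and 1832, so endothelial cells were near them in the atherosclerotic flox library and not above them in the atherosclerotic library labelled Nrf2Cdh5tKO. In the second library 1 endothelial cell held 18.5% of the UMIs of the set. Nonclassical monocytes stood at 2001 CPM with it and 693 without it, and cavity macrophages at 1935 and 697, since Ifi27l2a alone was at 1307 and 1238 there. NK cells barely moved (802 with it and 768 without it).

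**Figure D2:**
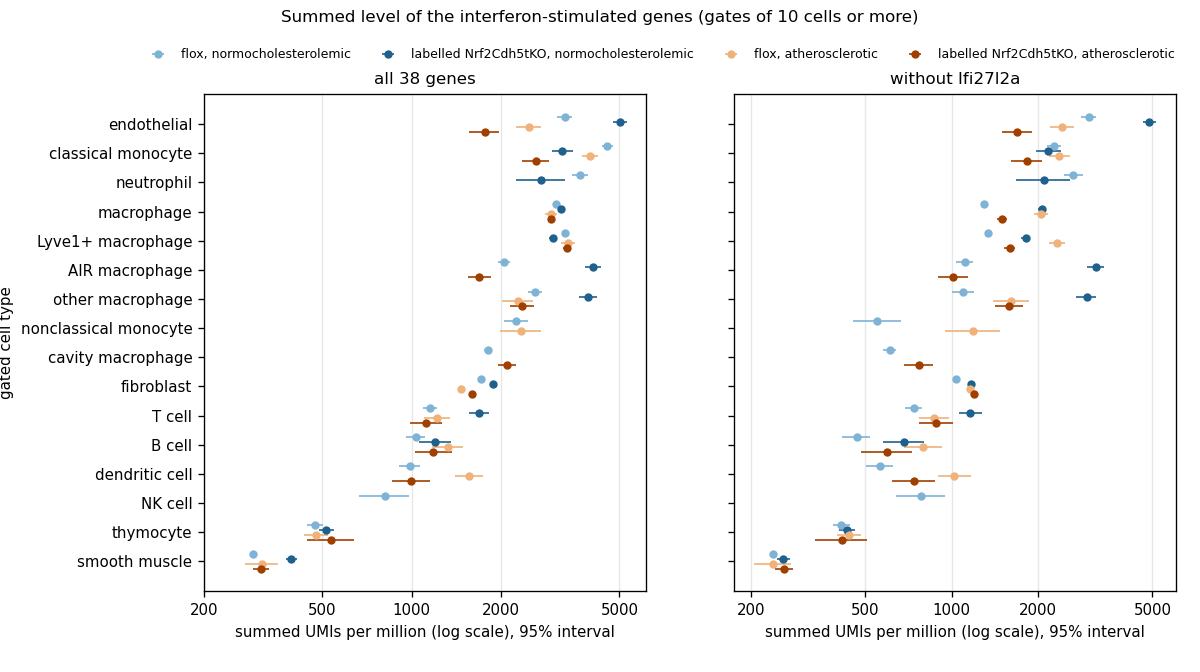
Summed level of the interferon-stimulated genes in CPM (log scale) by cell type, 1 point per library with its exact 95% counting interval, for all 38 genes and without Ifi27l2a. Without Ifi27l2a the 4 macrophage points spread from 1292 to 2065, whereas with it they lie between 2937 and 3185.

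Endothelial cells held the highest level of 14 of the 38 genes, and for 8 of these the interval lay apart from the next cell type. The share of all genes that peak in each cell type is not given. The counts of peaks, here and below, therefore describe the listed genes only and are not read as a trait of the set. Slfn5 (a Schlafen family member) was at 760 (706 to 816) CPM in endothelial cells and at 264 in classical monocytes. Iigp1, an immunity-related GTPase, was at 319 (284 to 356) against 61.8 in fibroblasts, the next cell type, and led in all 4 libraries. Iigp1 had no UMI in classical monocytes, dendritic cells, nonclassical monocytes or NK cells, which by the limit of 3 counts allows up to 2.77 CPM in classical monocytes and 12.7 in the 37 NK cells. Gbp2 (121 CPM), Gbp7 (155), Xaf1 (113) and Ifi44 (36.8) also peaked there, with 59.9, 70.2, 71.0 and 9.22 in the next cell type. Bst2 peaked in endothelial cells at 536 (491 to 584) and stood at 403 in classical monocytes. GTPases as a group were at 782 CPM in endothelial cells, against 221 in fibroblasts, 220 in macrophages and 75.7 in smooth muscle cells. Endothelial cells led in all 4 libraries for Slfn5, Gbp2, Xaf1 and Ifi44, in 3 for Bst2 and in 2 for Gbp7. For Ifit2 and Gbp3, which also peaked there, they led in only 1. These values rest on 167 endothelial cells (72, 44, 28 and 23).

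Neutrophils also held the highest level of 14 genes, 7 of them apart from the next cell type. Isg15 was at 428 (362 to 502) CPM in neutrophils and at 216 in endothelial cells. Rsad2 was at 260 (209 to 319) against 101 in endothelial cells, and Oasl2, an oligoadenylate synthetase-like protein, at 228 (181 to 284) against 47.9 in classical monocytes. Oas3, Cmpk2 and Rtp4 followed the same order, at 65.6, 68.5 and 126 CPM. Bst2, in contrast, was lowest in neutrophils at 31.4. Most of this rested on the normocholesterolemic flox library, which held 76 of the 100 neutrophils. In that library 4 neutrophils with 3 or more Ifit UMIs held 96.7% of the neutrophil Ifit UMIs and 13.4% of all neutrophil UMIs. The genes of the set outside the Ifit family stood at 11007 CPM in these 4 cells and at 2289 in the library's other neutrophils. Neutrophils led in all 4 libraries for Isg15, Oasl2 and Rtp4, in 3 for Oas3, in 2 for Cmpk2 and in only 1 for Rsad2.

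Classical monocytes led in 6 genes, 4 of them apart from the next cell type. Ifi27l2a was at 1726 (1649 to 1806) CPM and at 1513 in macrophages. Irf7, the transcription factor that amplifies interferon production, was at 186 (161 to 214) against 99.9 in neutrophils, and led in classical monocytes in all 4 libraries. The DNA-binding protein gene Ifi211 stood at 175 and Oas1a at 60.9, with 91.9 and 31.6 in the next cell type. By library, Ifi27l2a in classical monocytes stood at 2275, 1037, 1616 and 779 CPM, so both libraries labelled Nrf2Cdh5tKO lay below both flox libraries. Macrophages stood at 1762, 1120.3, 888 and 1452, above classical monocytes in both libraries labelled Nrf2Cdh5tKO, so the pooled order of the pair did not hold there. Irf7 was at 151, 199, 255 and 182 CPM, with overlapping neighbours. These libraries held 43, 12, 17 and 12 classical monocytes.

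The lymphoid cells and cavity macrophages held few peaks. Igtp was highest in thymocytes (47.7 CPM) and Ifi47 in NK cells (89.2), both interferon-inducible GTPases, and Ifi206 was highest in T cells (31.7). Macrophages led in Oas2 (24.5 CPM). In none of these did the interval lie apart from the next cell type. The 5 genes with the most UMIs in T cells were Ifi27l2a (407 CPM), Bst2 (118), Isg15 (97.02), Ifi47 (59.2) and Parp14 (56.9). B cells were led by Ifi27l2a (553), Bst2 (78.7), Trim30a (67.7), Parp14 (48.8) and Irf9 (48.0), and NK cells by Isg15 (106), Bst2 and Ifi47 (89.2 each), Trim30a (72.2) and the nucleic acid sensor Zbp1 (55.2). Thymocytes were led by Bst2 (94.3), Ifi27l2a (67.3), Isg15 (50.01), Igtp (47.7) and Ifi47 (32.5). Dendritic cells were led by Ifi27l2a (405), Bst2 (138), Ifi211 (91.9), Trim30a (77.7) and Slfn5 (71.9). In nonclassical monocytes Ifi27l2a (1307) was followed by Bst2 (153), Irf7 (57.3), Parp14 (54.6) and Irf9 (49.1), and in cavity macrophages Ifi27l2a (1238) was followed by Bst2 (122), Gbp7 (70.2), Trim30a (56.8) and Isg15 (56.1). Ifi27l2a or Bst2 thus led in every cell type except NK cells and endothelial cells, where Isg15 and Slfn5 led.

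The stromal cells carried most of the cells. In fibroblasts (7682 cells) Ifi27l2a stood at 620 CPM, Bst2 at 202, Slfn5 at 162, Isg15 at 79.8 and Ifi211 at 72.9. In smooth muscle cells (2001 cells) the leading genes were Ifi27l2a (67.7), Bst2 (62.9), Iigp1 (29.7), Gbp2 (18.0) and Isg15 (16.0). Slfn5 stood at 1.68, 3.75 and 4.13 CPM in 3 of the smooth muscle libraries and had no UMI in the 67 smooth muscle cells of the atherosclerotic flox library, whereas it had the most UMIs after Ifi27l2a and Bst2 in fibroblasts. Macrophages were led by Ifi27l2a (1513), Bst2 (332), Slfn5 (134), Parp14 (118) and Trim30a (86.9).

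In macrophages the libraries differed in opposite directions for different genes. The summed level of all 38 genes was 3054, 3185, 2937 and 2953 CPM in the 4 libraries. Without Ifi27l2a it was 1292, 2065, 2049 and 1501. Ifi27l2a alone was at 1762, 1120.3, 888 and 1452. The normocholesterolemic flox library was thus lowest for the other genes and highest for Ifi27l2a, and the 2 middle libraries were highest for the other genes and lowest for Ifi27l2a. The regulators stood together at 92.8, 176, 170 and 153 CPM and the GTPases at 162, 334, 371 and 202. The 4 libraries held 534, 277, 75 and 207 macrophages.

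Ifit1 stood at 5.56, 23.4, 32.1 and 8.55 CPM in macrophages, and Ifit3 at 14.9, 29.0, 43.9 and 16.0. Rsad2 was at 9.87, 67.2, 57.4 and 25.7, and Iigp1 at 14.5, 77.6, 125 and 17.1. Isg15 was at 52.6, 155, 99.6 and 60.4. In each of these 5 genes the 2 middle libraries, normocholesterolemic labelled Nrf2Cdh5tKO and atherosclerotic flox, were above the other pair. Among the regulators, Usp18 (9.87, 24.7, 32.1 and 18.8) and Stat2 (17.9, 34.7, 52.3 and 21.7) were also highest in the 2 middle libraries. Irf7 stood at 26.0, 48.1, 54.0 and 59.9 and did not, since the atherosclerotic labelled Nrf2Cdh5tKO library was highest. Bst2, an effector, was at 367, 303, 196 and 308 CPM and was highest in the normocholesterolemic flox library.

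Under normocholesterolemia, 13 of the 35 genes with enough UMIs were 2-fold or more higher in macrophages of the library labelled Nrf2Cdh5tKO than of the flox library, against 7.53% of all genes, and none was lower (2.74% of all genes). The median log2 ratio was 0.86 for these genes and 0.23 for all genes. The largest ratios were those of Ifit2, at log2 2.93 (2.29 to 3.61), Rsad2, at 2.77 (2.31 to 3.24), and Iigp1, at 2.42 (2.03 to 2.81). Isg15, Ifit1, Oasl1, Oas3, Cmpk2, Mx1, Usp18, Gbp7, Ifi47 and Herc6 made up the rest. Of the 220 Ifit UMIs in macrophages of the library labelled Nrf2Cdh5tKO, 97 lay in 3 of its 21 AIR macrophages. The same cells enter the pair of libraries labelled Nrf2Cdh5tKO below. The log2 ratio of the summed Ifit genes was 1.86 with all macrophages and 2.16 without the 1% of cells highest in them. Ifi27l2a (-0.65) and Bst2 (-0.27) were the only genes of the set whose intervals lay below 0. Their direction was the opposite of 26 genes whose intervals lay above 0, against 29.1% of all genes above 0 and 10.7% below.

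Under atherosclerosis the same pair of labels gave the other direction, and the difference between the pairs was not tested. None of 31 genes was higher by 2-fold in macrophages of the library labelled Nrf2Cdh5tKO (3.84% of all genes) and 5 were lower (3.83% of all genes): Ifit1, Ifit3, Rsad2, Stat2 and Iigp1. The median log2 ratio was -0.65 for the set and -0.08 for all genes. The ratio of Iigp1 was -2.87 (-3.53 to -2.24), of Ifit1 -1.91 and of Ifit3 -1.46, while Irf9 (0.73), Ifi27l2a (0.71) and Bst2 (0.66) were higher. Between atherosclerotic and normocholesterolemic flox macrophages, 16 of 34 genes were higher (10.7% of all genes) and none was lower (6.73%), with a median log2 ratio of 0.93 against 0.18 for all genes. Iigp1 led at 3.103 (2.63 to 3.58), followed by Rsad2 at 2.54 and Ifit1 at 2.53. Ifi27l2a (-0.99) and Bst2 (-0.90) were lower. Between the libraries labelled Nrf2Cdh5tKO, none of 35 was higher (1.99% of all genes) and 8 were lower under atherosclerosis (4.64%), led by Ifit2 at -3.69, Iigp1 at -2.18 and Mx1, an antiviral dynamin-like GTPase, at -1.75. Each library enters 2 of the 4 pairs, so the pairs are not independent of each other.

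Lyve1+ macrophages, the resident adventitial kind, made up 829 of the 1093 macrophages (413, 217, 54 and 145). Their summed level without Ifi27l2a was 1343, 1811, 2331 and 1597 CPM, and Ifi27l2a was at 1932, 1167, 1031 and 1723. Ifit1 stood at 3.21, 17.9, 41.1 and 9.35, Rsad2 at 9.17, 39.6, 50.8 and 25.7, and Iigp1 at 15.8, 48.3, 177 and 21.04. The 2 middle libraries were again above the other pair for these genes, and the atherosclerotic flox library was highest for each of them. Among all macrophages the normocholesterolemic library labelled Nrf2Cdh5tKO was highest for Rsad2.

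Under normocholesterolemia, 6 of 34 genes were higher in Lyve1+ macrophages of the library labelled Nrf2Cdh5tKO (7.61% of all genes) and none was lower (2.65%). The leading genes were Ifit1 (2.48), Rsad2 (2.11) and Oasl1 (1.75, from 10.3 to 34.7 CPM), an oligoadenylate synthetase-like protein. Under atherosclerosis none of 31 was higher (4.56% of all genes) and 8 were lower (4.93%), led by Iigp1 (-3.07), Ifit1 (-2.14) and Ifit3 (-1.90). Between the flox libraries, 14 of 33 were higher under atherosclerosis (12.5% of all genes) and none was lower (7.27%), led by Ifit1 (3.68), Iigp1 (3.48) and Rsad2 (2.47). Between the libraries labelled Nrf2Cdh5tKO, none of 33 was higher (1.64% of all genes) and 2 were lower (5.02%), which were Iigp1 (-1.20) and Mx1 (-1.56, with an interval that held 0). Oas1a (0.78) and Irf7 (0.77) were higher in that pair, though by less than 2-fold. Ifi27l2a gave -0.73, 0.74, -0.91 and 0.56 in these 4 pairs, and Bst2 was lower in the normocholesterolemic and flox pairs (-0.40 and -0.99) and higher in the atherosclerotic pair (0.68). For the atherosclerotic pair the paper reports upregulation of interferon-stimulated genes in Nrf2Cdh5tKO Lyve1+ macrophages. Its list holds Rsad2, Isg15, Cmpk2, Irf7, Ifit2, Ifit3, Ifit3b, Ifi211, Oasl1 and Oasl2, whereas Ifit3 was lower here. Rsad2 and Oasl1 are listed as upregulated in its normocholesterolemic pair, as here. The paper compared single cells of clusters, whereas UMIs summed over marker-gated cells are compared here. The reason for the difference was not tested.

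**Figure D3:**
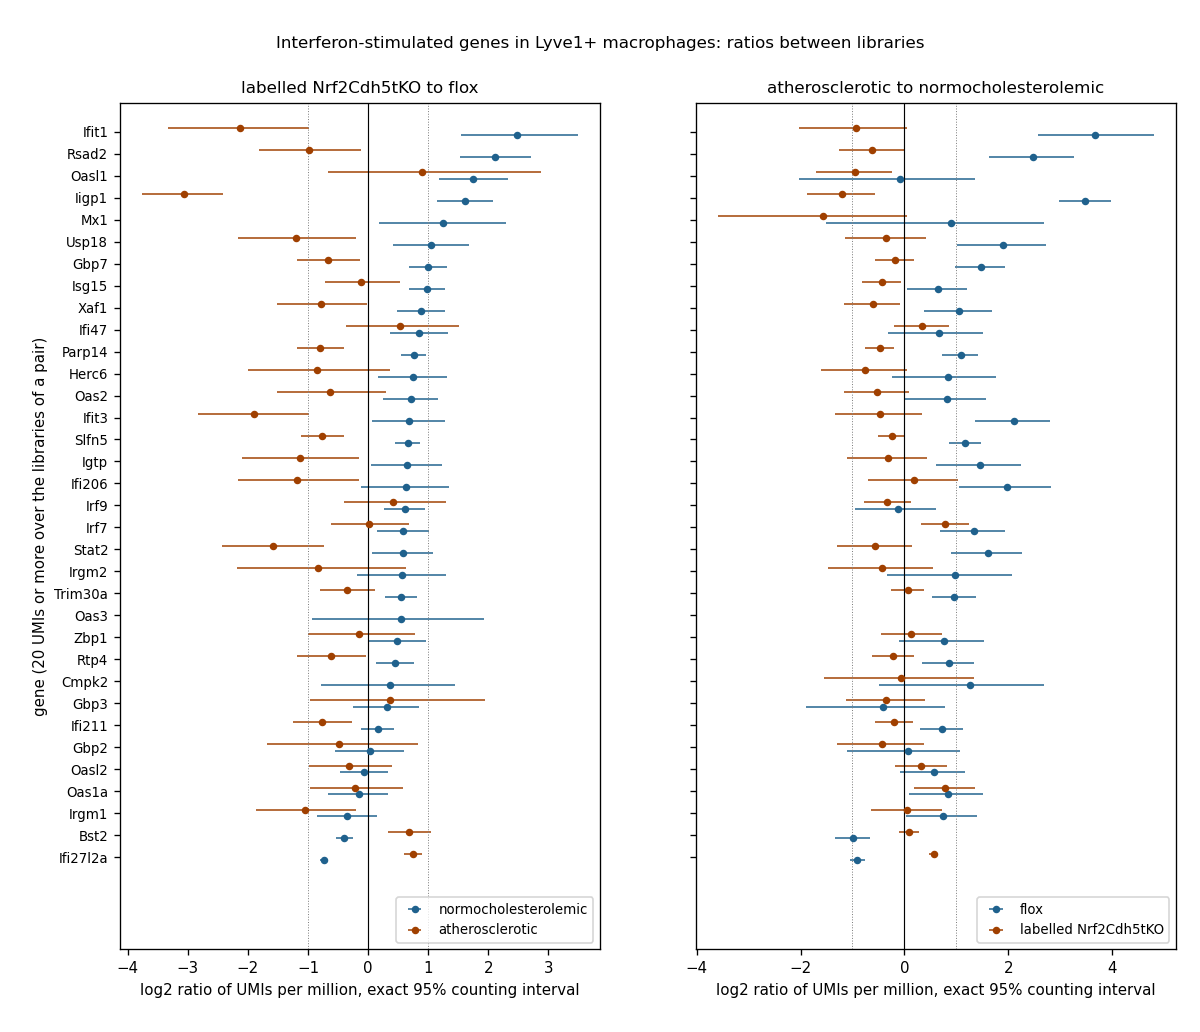
Log2 ratios of CPM between libraries in Lyve1+ macrophages, 1 row per interferon-stimulated gene with 20 UMIs or more over a pair, with exact 95% counting intervals; dotted lines mark 2-fold. For most genes the normocholesterolemic ratio of labelled Nrf2Cdh5tKO to flox lies above 0 and the atherosclerotic ratio below 0, whereas Ifi27l2a and Bst2 do the opposite.

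Some of these ratios rested on few cells. Of the 73 Iigp1 UMIs in Lyve1+ macrophages of the atherosclerotic flox library, 46 lay in 1 cell. Without the cell with the most Iigp1 UMIs in each library, the ratio of Iigp1 was -1.82 (-2.68 to -0.97) between the atherosclerotic pair and 2.52 (1.79 to 3.22) between the flox pair. Treated in the same way, Rsad2 went from -0.98 to 0.32 (-0.91 to 1.76) between the atherosclerotic pair, and from 2.47 to 1.17 (-0.25 to 2.36) between the flox pair, so its interval then held 0. Ifit1 stayed at -1.96 (-3.41 to -0.55) and 3.45 (2.10 to 4.79) in these pairs. Of the 54 Lyve1+ macrophages of the atherosclerotic flox library, 4 with 3 or more Ifit UMIs held 85.5% of its Ifit UMIs. Outside the Ifit family, Ifi27l2a included, the set stood at 10093 CPM in these 4 cells. In the cells with fewer Ifit UMIs it stood at 3167, 2671, 2086 and 3177 CPM in the 4 libraries. Without the 5% of cells highest in the Ifit genes, their summed ratio was -1.82 (-2.86 to -0.80) in the atherosclerotic pair. In the flox pair it was 2.83 (1.92 to 3.72). AIR macrophages (63, 21, 5 and 30 cells) had a summed level of 2045, 4084, 1366 and 1689 CPM, and 1 cell held 34.8% of the UMIs behind the highest value.

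Measures of library quality moved with the macrophage values. The median share of mitochondrial UMIs in macrophages was 2.12%, 3.34%, 2.87% and 2.37%, so the 2 middle libraries were again above the other pair, and the median depth was 9915, 7787, 6491 and 8024 UMIs. Among macrophages with 2 to 4% mitochondrial UMIs, 20 of 34 genes were higher under the Nrf2Cdh5tKO label in the normocholesterolemic pair (8.25% of all genes) and 8 of 24 lower in the atherosclerotic pair (5.56%). Between the flox libraries 17 of 30 were higher (13.1%), and between the labelled Nrf2Cdh5tKO libraries 11 of 33 were lower (4.51%). Within the window the log2 ratio of the summed level without Ifi27l2a was 0.88, -0.78, 0.95 and -0.72 in these 4 pairs. Over all macrophages it was 0.68, -0.45, 0.67 and -0.46. The window was chosen after seeing the data and left 28 macrophages in the atherosclerotic flox library. The part of library quality in the macrophage values was not tested. In Lyve1+ macrophages the mitochondrial window gave 6 of 31 (7.57% of all genes), 3 of 20 (4.87%), 19 of 30 (11.9%) and 5 of 29 (4.93%) in the same pairs and directions. Among macrophages of 5000 to 15000 UMIs the counts were 14 of 35 (6.94%), 8 of 29 (5.89%), 11 of 33 (11.6%) and 12 of 34 (5.02%). In the other direction, 2 of 29 were then higher in the atherosclerotic pair (4.32% of all genes) and 2 of 33 lower in the flox pair (6.35%). In the mitochondrial window 1 of 30 was lower in the flox pair of macrophages (8.41%) and 2 of 30 in that of Lyve1+ macrophages (9.22%). The other pairs had none.

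The other transcripts of the signal were read from a list of the pathway. In macrophages the receptor chains Ifnar1 and Ifnar2 had ratios whose intervals held 0 in all 4 pairs. Cxcl10, a chemokine induced by interferon, stood at 42.0, 141, 8.44 and 42.8 CPM and thus was lowest in the atherosclerotic flox library, where Ifit1 and Iigp1 were highest. No interval is given for these values, and the lowest rests on 75 macrophages. In the normocholesterolemic flox library 71 of the Cxcl10 UMIs lay in 1 AIR macrophage. Of the listed pathway genes outside the set, with enough UMIs, 29 of 57 had intervals above 0 and 8 below in the normocholesterolemic macrophage pair, where 29.1% and 10.7% of all genes did. The counts were 6 and 9 of 50 in the atherosclerotic pair (6.94% and 11.7% of all genes). They were 18 and 8 of 57 between the flox libraries (18.9% and 8.54%), and 4 and 17 of 54 between the libraries labelled Nrf2Cdh5tKO (8.21% and 15.2%).

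Receptor transcripts were present in every cell type. Ifnar1 ranged from 16.0 CPM in smooth muscle cells to 97.0 in neutrophils and Ifnar2 from 37.8 in B cells to 165 in neutrophils. Among ligands, Ifng had 331 UMIs in 103 cells and was highest in NK cells (267 CPM) and T cells (71.8). Ifna1, Ifna2, Ifna4, Ifna5, Ifnl2, Ifnl3, Ifnk and Ifne had no UMI in 14148 cells, which by the limit of 3 counts allows a share of cells with a UMI of up to 0.0212%. Cxcl9, a target of interferon gamma, was at 302 CPM in endothelial cells and 12.1 in fibroblasts.

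Fibroblasts, the most numerous cells, differed little between libraries as a set. The summed level was 1711, 1879, 1468 and 1592 CPM, and 1039, 1171, 1157 and 1194 without Ifi27l2a. Ifi27l2a was at 672, 708, 311 and 398 CPM, lower in both atherosclerotic libraries than in both normocholesterolemic libraries (log2 -1.11 and -0.83), without overlap of the intervals. UMIs of macrophage marker genes in fibroblasts were at 92.9, 117, 97.4 and 234 CPM, and their part in the Ifi27l2a values was not tested. In the normocholesterolemic pair 1 of 35 genes was higher under the Nrf2Cdh5tKO label (2.55% of all genes), which was Oas2, and none was lower (4.38%). In the atherosclerotic pair 2 of 32 were higher (1.86%), Oas2 and Ifit3b, and none was lower (1.11%). Both are low in fibroblasts, Oas2 at 0.601 to 2.04 CPM over the 4 libraries. Between the flox libraries 1 of 35 was higher (3.38%) and 2 were lower (5.91%), and between the libraries labelled Nrf2Cdh5tKO 1 was higher (2.42%) and none was lower (4.32%). The lower genes of the flox pair were Ifi27l2a and Ifi44, and Ifi44 was the higher gene of the labelled Nrf2Cdh5tKO pair, on 2 to 36 UMIs a library. The gene that was higher in the flox pair was Slfn5, from 128 (125 to 131) to 262 (250 to 274) CPM, and it stood at 187 and 196 in the libraries labelled Nrf2Cdh5tKO. The shares of the set that were called, 0 to 6.25%, lay near those of all genes, at 1.11 to 5.91%.

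Endothelial cells had wide intervals. Their summed level was 3268, 5023, 2480 and 1760.2 CPM. In the normocholesterolemic pair 11 of 26 genes were higher under the Nrf2Cdh5tKO label (5.96% of all genes) and none was lower (4.89%), with Ifit1 at 19.3, 172, 23.4 and 6.01 CPM over the 4 libraries. Of the 48 Ifit1 UMIs in the second library, 28 lay in 1 cell. In the atherosclerotic pair none of 9 was higher (6.42%) and 2 were lower (7.29%). Between the flox libraries 3 of 15 were higher (8.81%) and 5 were lower (10.6%), and between the libraries labelled Nrf2Cdh5tKO none of 20 was higher (7.24%) and 14 were lower (12.4%). The last count included Ifit1, Irf9 and Igtp, each with 1 UMI in the atherosclerotic library of 23 cells. Slfn5 stood at 778, 1141, 515 and 330 CPM. Gbp2 stood at 85.5, 111, 257 and 78.1, and 38 of the 44 UMIs behind the highest value lay in 1 cell. The median mitochondrial share in endothelial cells was 1.87%, 3.92%, 2.35% and 2.24%, again highest in the library with the highest values, and its part in them was not tested. Among endothelial cells with 2 to 4% mitochondrial UMIs the normocholesterolemic count was 3 of 10 higher (8.32% of all genes) and 1 lower (7.24%).

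In smooth muscle cells the summed level was 292, 394, 312 and 311 CPM and 239, 260, 239 and 261 without Ifi27l2a. The higher second library thus came from Ifi27l2a, at 52.5, 134, 73.6 and 49.2 CPM. UMIs of macrophage marker genes in smooth muscle cells were at 77.6, 189, 110 and 185 CPM, near each other in both libraries labelled Nrf2Cdh5tKO. Their part in the Ifi27l2a value was not tested. Ifit3 stood at 11.4, 5.01, 5.16 and 2.86, and 113 of the 238 UMIs in the first library lay in 1 cell. Iigp1 was at 33.7, 23.2, 29.7 and 14.3 CPM.

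T cells and B cells held fewer cells but gave summed values. Without Ifi27l2a, T cells stood at 737, 1163, 871 and 884 CPM and B cells at 467, 682, 798 and 595. In both, the normocholesterolemic flox library was lowest, as in macrophages. Of 29 B cells behind the value of 798, 1 stood at 18311 CPM outside the Ifit family, Ifi27l2a included, and the others at 974. In thymocytes the log2 ratios without Ifi27l2a had intervals that held 0 in all 4 pairs, from -0.09 to 0.09.

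The UMIs of the set were unevenly spread over the cells of a type. In fibroblasts the 10% of cells with the highest level of the set held 36.7% of its UMIs and 10.9% of all UMIs. The shares were 34.9% and 11.7% in macrophages. For the 4 Ifit genes alone the top 10% of cells held 66.0% of the UMIs in fibroblasts, 82.9% in smooth muscle cells and 90.0% in macrophages. Taken from the highest level down, 15 of the 1093 macrophages and 14 of the 2001 smooth muscle cells held 50% of the Ifit UMIs, against 316 of 7682 fibroblasts. Cells were ordered by the levels they are described with, as a part of each cell's UMIs, and sparse counts give some unevenness of this kind.

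**Figure D4:**
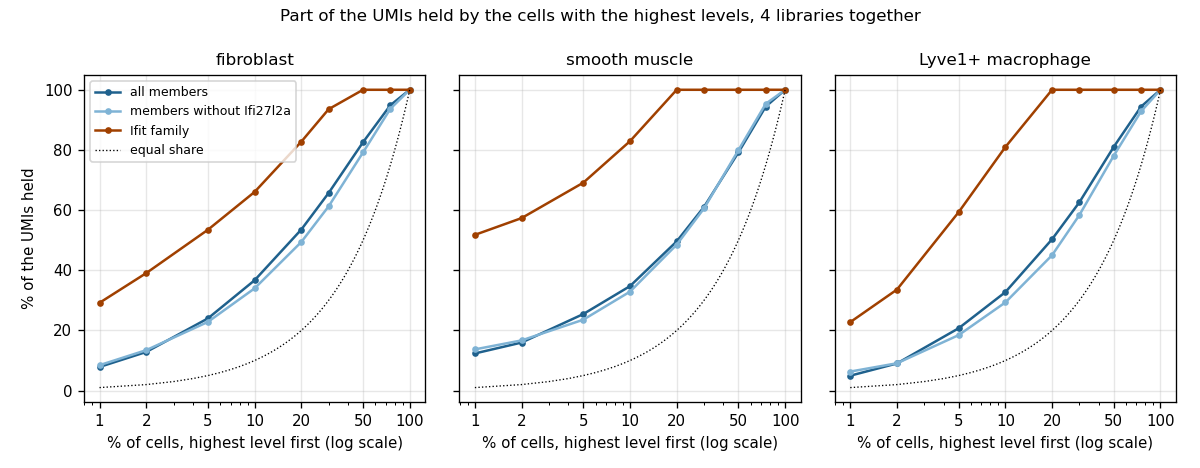
Cumulative share of the UMIs of interferon-stimulated genes (percent) against the share of cells (percent, log scale), cells ordered from the highest level, for all 38 genes, for the set without Ifi27l2a and for the 4 Ifit genes, in fibroblasts, smooth muscle cells and Lyve1+ macrophages of the 4 libraries together; the dotted line marks equal shares. The Ifit curves lie above the others and reach 66.0%, 82.9% and 81.0% at 10% of the cells.

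Cells with 3 or more Ifit UMIs, called Ifit-high here, were found in several cell types. In fibroblasts, macrophages and smooth muscle cells they carried most of the other genes of the set at higher levels. There were 606 among fibroblasts (7.89%) and 37 among macrophages (3.39%). By library they were 6.26%, 12.6%, 9.05% and 7.16% of fibroblasts and 1.87%, 6.50%, 5.33% and 2.42% of macrophages, so in both the 2 middle libraries were above the other pair. The macrophage shares rest on 10, 18, 4 and 5 cells. After thinning to 3000 UMIs the shares of fibroblasts with 2 or more Ifit UMIs were 2.99%, 4.58%, 2.95% and 4.42%, and the atherosclerotic flox library no longer stood above the first. Ifit-high cells were deeper than the others, with medians of 16136 and 12624 UMIs in fibroblasts and 10739 and 9035 in macrophages, and 2 of the fibroblasts and none of the macrophages were marked as doublets.

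Of the other genes with 20 or more UMIs, all 31 in fibroblasts, all 32 in macrophages and 19 of 26 in smooth muscle cells had intervals above 0 for the log2 ratio of Ifit-high to other cells, with medians of 1.91, 2.22 and 2.55. None had an interval below 0 in these cell types. Of all genes outside the Ifit family, 12.4%, 4.82% and 4.71% had intervals above 0 and 8.21%, 4.48% and 2.51% below, in the same order. In fibroblasts Rsad2 stood at 26.4 CPM in Ifit-high cells and 1.74 in the others, and Isg15 at 313 and 52.6. In macrophages Rsad2 stood at 334 and 16.0, and Isg15 at 699 and 54.9. The log2 ratios were 2.09 in fibroblasts and 3.74 in macrophages for Iigp1, 2.20 and 3.36 for Usp18, and 1.93 and 2.84 for Irf7. They were smaller for Irf9 (1.17 and 0.81), Bst2 (0.85 and 1.19) and Ifi27l2a (0.88 and 0.71). Bst2 and Ifi27l2a, which hold the most UMIs of the set, thus had some of its smallest ratios, and Ifi27l2a was still higher in Ifit-high cells, at 1050 against 570 CPM in fibroblasts. In classical monocytes the summed genes outside the Ifit family stood at 7457 CPM in 9 Ifit-high cells and 3469.5 in the others. In those of the normocholesterolemic library labelled Nrf2Cdh5tKO the order was the reverse, at 1550 CPM in 3 Ifit-high cells and 3965 in the others.

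**Figure D5:**
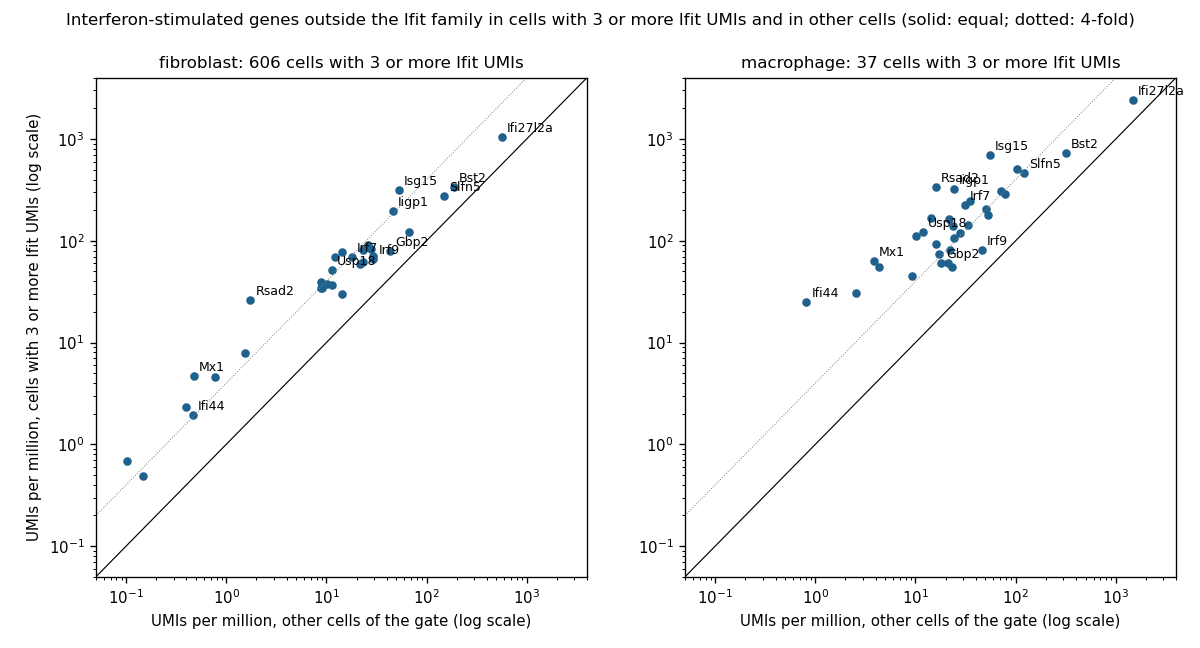
CPM of the interferon-stimulated genes outside the Ifit family in cells with 3 or more Ifit UMIs (vertical, log scale) against the other cells of the same type (horizontal, log scale), 1 point per gene with UMIs in both groups of cells, in fibroblasts and macrophages; the solid line marks equal levels and the dotted line a 4-fold difference. All points drawn lie above the solid line in both panels, with Rsad2 and Isg15 above the dotted line and Ifi27l2a and Bst2 near the solid line.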

How the data were processed

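Per the labels and the study's methods, single-cell libraries were made with 10x 3′ chemistry from live-sorted cells and were aligned and counted by the authors with Cell Ranger 6.1.2 on mm10. The deposited values are raw UMI counts per gene and barcode, not normalized. The limits the study states were applied: 14148 of 15599 barcodes had between 200 and 6000 genes and a mitochondrial share of 15% or less. Scrublet, as run through scanpy 1.11.5, marked 306 cells (2.16%) as doublets, which were left in. Cell types were set by gates on 114 marker genes, none of them in the set, and 1709 cells were left out of them. Of these, 726 had no lineage and 515 had 2 or more. The others were leukocytes that could not be placed in a single leukocyte type. UMIs were summed per library and cell type and divided by all UMIs of those cells (CPM). Library totals ran from 12276546 to 98754487 UMIs before filtering and from 11774812 to 95364714 after it. Levels carry exact Poisson 95% intervals and log2 ratios exact intervals from the binomial split of the counts. Both cover counting error only. Where a library had 0 counts a floor of 3 counts was used, and no ratio was formed when both libraries lay at or under it. With 1 library per group no p-value was computed. For each cell type the 5 genes with the highest levels are named, and for each gene its highest cell type. For each pair of libraries the 3 largest ratios in each direction whose interval left out 0 were drawn on. The members and lists were chosen with earlier results of these data known. Ratios were computed in Python 3.11.15 with numpy 2.4.6, scipy 1.17.1 and pandas 2.3.3 and were tested on simulated data. The alternatives were other gates, denominators, thinning, means over cells, and leaving out genes or the highest cells. A gene of the pathway list and an agent given to the atherosclerotic mice are not reported here.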

Additional observations from a re-analysis of the deposited data

Results flagged for a closer look

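For 9 sums or genes the log2 ratio of the library labelled Nrf2Cdh5tKO to the flox library had the opposite sign in the normocholesterolemic and the atherosclerotic pair, with both intervals leaving out 0. Each pair is 1 library against 1 library, and the difference between the pairs was not tested. For the summed level without Ifi27l2a the atherosclerotic ratio minus the normocholesterolemic ratio was -1.12 in macrophages (0.68 and -0.45), -0.98 in Lyve1+ macrophages (0.43 and -0.55), -1.22 in endothelial cells (0.70 and -0.52) and -0.97 in B cells (0.55 and -0.42). In endothelial cells it was -1.11 with Ifi27l2a included (0.62 and -0.49), on 23 to 72 cells a library. Among endothelial cells of 5000 to 15000 UMIs, a window chosen after seeing the data, the atherosclerotic ratio without Ifi27l2a was 0.96 (0.55 to 1.38, on 10 and 7 cells), so its sign turned. Ifi27l2a alone gave 1.36 in macrophages (-0.65 and 0.71) and 1.47 in Lyve1+ macrophages (-0.73 and 0.74), the reverse of the other genes there. In smooth muscle cells Ifi27l2a gave -1.93 (1.35 and -0.58), and in T cells -0.90 (0.34 and -0.57). For the genes outside the Ifit family, Ifi27l2a included, 1 of 29 atherosclerotic flox B cells stood at 18311 CPM and the others at 974. B cells of the atherosclerotic library labelled Nrf2Cdh5tKO stood at 1184 on that sum, so on it the flox library was not above without that cell. The ratio of -0.42 belongs to another sum, without Ifi27l2a, whose value without that cell is not given.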

How the results depend on the processing

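Every group is 1 library, so depth limits only the counting intervals and the spread between mice is unknown. No paired analysis was possible because each group is 1 library. For 14 summed log2 ratios, 140 values were recomputed: 89 moved by less than the counting interval, 41 moved and 10 were counted as reversed. Some values below that were not counted as reversed also changed sign. They include macrophage A (0.01 to -0.45) and F (-0.06 to 0.67), Lyve1+ A (-0.02 to 0.17) and smooth muscle A (-0.01 to 0.23). Below, N and A are the labelled Nrf2Cdh5tKO to flox ratios under normocholesterolemia and atherosclerosis, F and K the atherosclerotic to normocholesterolemic ratios of flox and labelled Nrf2Cdh5tKO. The main values were 0.14, 0.12, -0.22 and -0.24 (N, A, F, K) in fibroblasts, 0.43, -0.01, 0.10 and -0.34 in smooth muscle cells, 0.06, 0.01, -0.06 and -0.11 in macrophages, and -0.14 and -0.02 (N, A) in Lyve1+ macrophages. Leaving out Ifi27l2a, an alternative chosen after seeing the data, reversed Lyve1+ N (0.43), fibroblast F (0.15) and K (0.03) and smooth muscle K (0.01), and moved Lyve1+ A to -0.55, fibroblast N to 0.17 and A to 0.04, macrophage N, A, F and K to 0.68, -0.45, 0.67 and -0.46, and smooth muscle N to 0.12. Leaving out the 3 genes with the most UMIs reversed Lyve1+ N (0.66), fibroblast F (0.03) and K (0.01) and smooth muscle K (0.07), and moved Lyve1+ A to -0.73, fibroblast N to 0.12, macrophage N, A, F and K to 0.96, -0.62, 0.99 and -0.59, and smooth muscle N to 0.20 and A to 0.23. Thinning to 3000 UMIs gave 0.18 (N) and -0.28 (K) in fibroblasts, 0.09 (A) and -0.17 (F) in macrophages, and 0.29 (N), 0.21 (A) and 0.04 (K, reversed) in smooth muscle cells. Means over cells gave 0.18 (N) and -0.27 (K) in fibroblasts, 0.09 (A), -0.20 (F) and -0.17 (K) in macrophages, and 0.31 (F) and -0.08 (K) in smooth muscle cells. Without the top 1% of cells the values were 0.16 (N), -0.19 (F) and -0.26 (K) in fibroblasts, 0.00 (N, reversed) and -0.14 (F) in macrophages, 0.58 (N) and 0.33 (F) in smooth muscle cells, and 0.09 (A) in Lyve1+ macrophages. Without mitochondrial and ribosomal UMIs in the total they were 0.11 (N) and -0.21 (K) in fibroblasts, 0.01 (N) in macrophages and -0.19 (N) in Lyve1+ macrophages. With 1 marker more required, Lyve1+ A was 0.17. The causes of these shifts were not tested.

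Counts of genes 2-fold apart were recomputed under 4 alternatives chosen after seeing the data, and 26 of 40 stayed within 1.5 times. In cells of 5000 to 15000 UMIs, 8 of 29 were lower in macrophages (A, 5.89% of all genes) and 9 of 15 in endothelial cells (K, 16.2%). In cells of 2 to 4% mitochondrial UMIs, 20 of 34 were higher (N, 8.25% of all genes) and 8 of 24 lower (A, 5.56%) in macrophages. In Lyve1+ macrophages 3 of 20 were lower (A, 4.87%). In endothelial cells 3 of 10 were higher (N, 8.32%), 3 of 8 lower (F, 13.0%) and 6 of 8 lower (K, 16.0%). Centred on the median of all genes, 9 of 34 were higher in macrophages (F, 6.9% of all genes), and 2 were lower there (8.86%). Without the 5% of cells highest for the other genes, 9 of 31 were higher (F, 12.9% of all genes) and 3 of 29 lower (A, 5.37%) in Lyve1+ macrophages. In macrophages 5 of 32 were lower (K, 4.69%). In endothelial cells 7 of 21 were higher (N, 6.54%) and 8 of 13 lower (K, 12.1%).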

Other observations

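Ifnb1, the gene of interferon beta, had 270 UMIs in 14 of the 14148 cells, and 250 of these lay in 1 AIR macrophage of the normocholesterolemic flox library. That cell was chosen after its values were seen. It held 13752 UMIs, of which Ifnb1 made up 1.82%, and carried 8 of the macrophage markers. It also held 71 UMIs of Cxcl10, 70 of Tnf, 29 of Isg15, 20 of Ifit2 and 20 of Oasl1, with 213 UMIs of the interferon-stimulated genes in all, 51 of them from the Ifit family. The cell with the next most Ifnb1 UMIs held 3.

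In endothelial cells of the normocholesterolemic library labelled Nrf2Cdh5tKO, 1 cell held 18.5% of the UMIs of the set and 51.7% of the Ifit UMIs. In smooth muscle cells of the normocholesterolemic flox library, 1 cell held 224 of 611 Ifit UMIs (36.7%), and the log2 ratio of the Ifit genes between the normocholesterolemic libraries was -0.43 with all cells and 0.74 without the top 1% of cells. In Lyve1+ macrophages the same ratio was 1.46 with all cells and 1.71 without the top 1%.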
